A study of Mus musculus with 88 samples.

Results

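Ddit3, Atf4, Atf5, Xbp1, Asns and Herpud1 stand for the integrated stress response and the unfolded protein response, and their levels were followed across 8 genotypes of mice. They were chosen by symbol, and each of the 6 had 1 entry among the 14451 genes of the deposited table. The study asked how deletion of Trem2, a receptor of microglia, acts in mice that carry human APOE3 or APOE4 in place of mouse Apoe. Frontal cortex RNA was sequenced from 88 mice, 1 library per mouse, in animals of about 6.5 months. Per the study's methods, brains were taken after behavioral tests, among them fear conditioning with foot shocks. The part of this handling in the levels was not tested. APP/E4/Trem2ko (16 mice) and APP/E4 (14) carried the APP/PS1dE9 transgenes, which encode mutant human APP and a deletion mutant of presenilin 1, on human APOE4, with Trem2 deleted or wild type. APP/E3/Trem2ko (14) and APP/E3 (14) carried the same transgenes on human APOE3. E4/Trem2ko (8), E4 (6), E3/Trem2ko (8) and E3 (8) were non-APP littermates with the same APOE and Trem2 alleles. All 8 groups therefore carry human APOE, and no group has mouse Apoe. Females and males were equal in number in 7 groups, and E4 had 4 females and 2 males. The Trem2 deletion is a germline one, so it is not limited to microglia.

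Library depth, recovered from the CPM values, was 41.3 to 95.5 M reads (median 49.8), so 1 read was worth 0.0105 to 0.0242 CPM, far below the level of any of the 6 genes. Trem2 followed the labels, at no more than 4.65 CPM in Trem2ko mice and at no less than 7.18 CPM in mice with wild-type Trem2. Some libraries stood apart: 31, all of APOE4 mice, held keratin reads (Krt13, Krt4 and Krt6a summing to at least 1 CPM). They were 10 of 16 APP/E4/Trem2ko, 10 of 14 APP/E4, 7 of 8 E4/Trem2ko and 4 of 6 E4 mice. Fits without these libraries thus rest on few APOE4 mice. High Ttr, a choroid plexus gene, marked 9 libraries, and high Alb 4. Those with high Ttr were 5 of 14 APP/E3/Trem2ko, 2 of 16 APP/E4/Trem2ko, 1 of 14 APP/E4 and 1 of 6 E4 mice. None was an APP/E3 mouse, so high Ttr was uneven by Trem2 in APP mice. Those with high Alb were 3 of 14 APP/E4 and 1 of 8 E4/Trem2ko mice. Striatal neuron markers (8 summed genes) had medians and highest values of 368 and 2647 CPM in E3 and 985 and 2975 CPM in E4 mice. They were at 259 and 452 CPM in E3/Trem2ko and 238 and 266 CPM in E4/Trem2ko mice. In each APP group the highest mouse had at least 2740 CPM. High striatal signal was thus uneven by Trem2 in non-APP mice. Rn45s, a ribosomal RNA precursor, had medians of 4104 CPM in APP/E4/Trem2ko, 6289 CPM in APP/E4, 4592 CPM in E4/Trem2ko and 4307 CPM in E4 mice, against 1115 to 1276 CPM in the APOE3 groups. The keratin reads and Rn45s thus moved with APOE4. The study names a sequencing batch that the labels do not give, so batch was not modelled and cannot be told apart from genotype.

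The integrated stress response slows protein synthesis by phosphorylation of the initiation factor eIF2, through kinases that sense amino acid shortage, viral RNA, heme shortage or misfolded protein in the endoplasmic reticulum (ER). Translation of Atf4, a transcription factor, goes up under these conditions, and ATF4 then switches on genes for amino acid synthesis, amino acid transport and tRNA charging. The unfolded protein response adds the ER sensors IRE1, which splices Xbp1 mRNA, and ATF6, and raises chaperones and the machinery that degrades misfolded ER proteins. Atf4 and Atf5 are controlled in large part at translation and Xbp1 by splicing, and gene levels read neither control. In the brain these pathways are known from neurodegeneration, neuronal activity and the demand of secretory cells.

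The genes lie on 6 chromosomes of GRCm38 (GENCODE M21 annotation of the mm10 assembly the authors used). Atf4 spans chr15:80255184-80257541 on the plus strand, Ddit3 chr10:127290774-127296288 on the plus strand and Atf5 chr7:44812256-44816658 on the minus strand. Xbp1 spans chr11:5520659-5525893 on the plus strand, Herpud1 chr8:94386438-94395377 on the plus strand and Asns chr6:7675169-7693254 on the minus strand. The Ddit3 span holds another annotated entry of the same symbol. The end of Ddit3 overlaps Mars, a methionyl-tRNA synthetase gene of the opposite strand, and the start of Atf5 overlaps Nup62, a nuclear pore gene of the opposite strand. Whether the counting used strand is not given in the sources used here, so reads in those overlaps may come from either gene.

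RefSeq promoters of GRCm38.p6, from 250 bases before to 50 after the start, were found for all 6 genes, with 2 windows for Atf5. They were searched on both strands for the ER stress element (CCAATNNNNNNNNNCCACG), its end CCACG, the ER stress element II (ATTGGNCCACG), a UPRE-like motif (TGACGTG) and the C/EBP-ATF response element, CARE (TGATGNAA), which ATF4 binds with C/EBP partners. Of 32851 mouse promoters, 0.0365% held the ER stress element II, 3.97% the CARE, 2.01% the UPRE-like motif, 0.119% the ER stress element and 32.8% CCACG. Herpud1 is shown because it held the rarest of these motifs, and Asns because it is a classic amino acid response gene with a CARE. Atf4 is shown because it gave the clearest differences with Trem2 deletion below. Capitals mark the matches, 5′ to 3′ on the strand of the gene.
Herpud1, chr8:94386179-94386478, plus strand: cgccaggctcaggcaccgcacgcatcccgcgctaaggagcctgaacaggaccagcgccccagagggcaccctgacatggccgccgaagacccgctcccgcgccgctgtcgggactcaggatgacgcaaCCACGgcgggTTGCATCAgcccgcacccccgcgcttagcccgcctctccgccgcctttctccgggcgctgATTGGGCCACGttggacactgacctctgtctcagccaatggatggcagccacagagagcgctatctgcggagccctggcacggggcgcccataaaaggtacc
Asns, chr6:7693160-7693459, minus strand: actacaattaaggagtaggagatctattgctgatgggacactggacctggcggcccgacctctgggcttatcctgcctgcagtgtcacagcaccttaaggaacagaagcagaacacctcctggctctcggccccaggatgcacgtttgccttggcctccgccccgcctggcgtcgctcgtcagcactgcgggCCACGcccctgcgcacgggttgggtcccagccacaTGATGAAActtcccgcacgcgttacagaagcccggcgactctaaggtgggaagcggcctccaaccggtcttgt
Atf4, chr15:80254934-80255233, plus strand: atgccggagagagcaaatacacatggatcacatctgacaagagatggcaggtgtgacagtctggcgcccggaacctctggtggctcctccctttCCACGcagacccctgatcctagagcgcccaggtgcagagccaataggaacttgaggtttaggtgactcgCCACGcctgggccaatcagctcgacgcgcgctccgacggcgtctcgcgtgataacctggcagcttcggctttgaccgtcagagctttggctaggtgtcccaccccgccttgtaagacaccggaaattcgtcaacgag
Herpud1 held an ER stress element II, ATTGGGCCACG, 52 bases before the start, which contains a CCACG. It also held another CCACG 122 bases before the start and a CARE read on the opposite strand, TTGCATCA, at 112 bases. Asns held the CARE TGATGAAA 23 bases before the start and a CCACG at 58 bases. Atf4 held CCACG at 156 and 87 bases, and Atf5 held 1 CCACG. No motif of the list matched in the Ddit3 and Xbp1 windows, which says only that these letters are not in these windows.

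**Figure D1:**
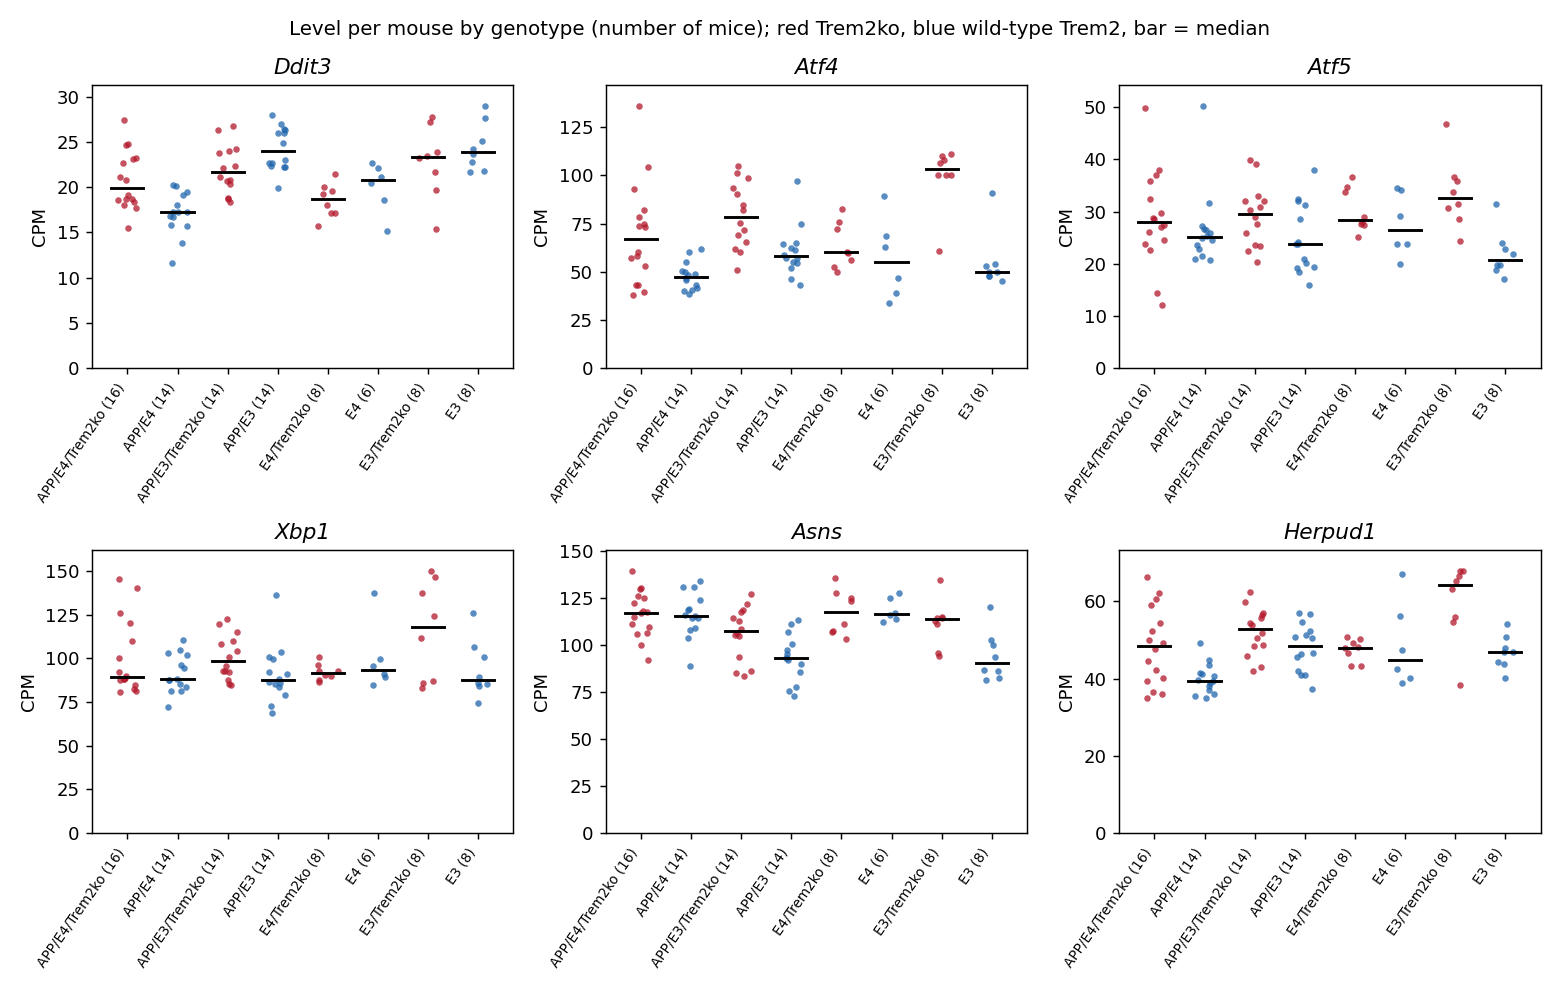
Level of the 6 genes in each mouse, in CPM on a linear axis starting at 0, for 8 genotypes with their numbers of mice. Points are mice (red Trem2ko, blue wild-type Trem2) and black bars are medians. In Atf4, 7 of 8 E3/Trem2ko mice lie above every E3 mouse, and in Ddit3, 12 of 14 APP/E4 mice lie below every APP/E3 mouse.

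All 6 genes were well expressed in every mouse. Per kilobase of exon, the median level over 88 mice was 40.7 CPM per kb for Asns, 28.2 for Xbp1, 25.6 for Atf4, 20.4 for Herpud1, 13.6 for Atf5 and 12.3 for Ddit3. Over all mice, the highest level was 4.12 times the lowest for Atf5, 3.99 times for Atf4, 2.48 times for Ddit3, 2.18 times for Xbp1, 1.94 times for Herpud1 and 1.91 times for Asns. Atf4 and Atf5 thus spread most.

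The 8 genotypes ordered differently for each gene, and most neighbours in the order did not differ beyond their spread, that is, their means lay closer than the smaller SD. Atf4 was highest in E3/Trem2ko mice (mean 99.5 CPM ± 16.4, SD, n = 8), then in APP/E3/Trem2ko (79.2 ± 16.9, n = 14), APP/E4/Trem2ko (69.2 ± 26.3, n = 16) and E4/Trem2ko (63.7 ± 11.8, n = 8). The 4 wild-type Trem2 groups came after them, at 60.6 ± 13.1 CPM in APP/E3, 56.8 ± 20.9 in E4, 54.8 ± 14.8 in E3 and 47.8 ± 7.30 in APP/E4 mice. Only the step between E3/Trem2ko and APP/E3/Trem2ko exceeded the smaller SD. The 4 Trem2ko groups also had the 4 highest means of Atf5, between 28.7 CPM in APP/E4/Trem2ko and 33.5 CPM in E3/Trem2ko mice, against 21.9 CPM in E3 to 27.6 CPM in E4 mice, with no step above the SD.

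Herpud1 and Xbp1 were highest in E3/Trem2ko mice, at 60.0 CPM ± 10.2 and 116 CPM ± 28.0 (SD, n = 8), and apart from the next group. Herpud1 was lowest, and apart from its neighbour, in APP/E4 mice (40.0 CPM ± 3.91, SD, n = 14). The order of Ddit3 followed the APOE isoform, with the 4 APOE4 groups (means 17.1 to 20.8 CPM) below the 4 APOE3 groups (22.0 to 24.5 CPM). Asns ran the other way, with the 4 APOE4 groups (116 to 119 CPM) above the 4 APOE3 groups (93.2 to 112 CPM). No step between neighbours exceeded the smaller SD in Ddit3, Asns or Atf5.

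Trem2 deletion was first compared within each background. Atf4 was the member with the largest difference. In E3/Trem2ko mice Atf4 was at 60.6, 103 and 111 CPM (lowest, median and highest), against 45.4, 49.8 and 90.7 CPM in E3 mice. The groups overlapped through E3/Trem2ko replicate 1, at the lowest value, and E3 replicate 8, at the highest. Atf4 rose by 0.87 ± 0.18 on the log2 scale (SE, limma on log2(CPM + 0.5), adjusted p = 0.00442 over the 14086 genes tested). With Atf5, 2 of the 6 genes were called in this comparison, where 2.92% of all genes were called at an adjusted p under 0.05 (1.26% higher and 1.65% lower). In bulk cortex, fewer cells of a type and less RNA per cell cannot be told apart.

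Atf5, a transcription factor of the same family that is linked to mitochondrial stress, was at 24.3, 32.6 and 46.7 CPM in E3/Trem2ko mice, against 17.1, 20.8 and 31.4 CPM in E3 mice. All 8 E3/Trem2ko mice lay above the median of E3, and 4 above its highest mouse. Atf5 rose by 0.60 ± 0.17 (log2, limma adjusted p = 0.0376). The call was lost when any of E3 replicates 1 to 6 or E3/Trem2ko replicates 2 to 5 was left out (adjusted p up to 0.0970). The Atf5 call was also lost with a covariate for striatal markers, where Atf4 stayed called.

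Summed immediate early genes (8 listed genes such as Fos and Arc, which neuronal activity induces) were also higher in E3/Trem2ko mice. They were at 654, 1899 and 4281 CPM, against 399, 608 and 1744 CPM in E3 mice. In the other backgrounds their medians were 1483 CPM in E4/Trem2ko against 621 CPM in E4 mice, and 662 CPM in APP/E4/Trem2ko against 545 CPM in APP/E4 mice. The median was lower in APP/E3/Trem2ko (929 CPM) than in APP/E3 mice (1047 CPM). A score, the mean of log2(CPM + 0.5) over these 8 genes, was then added as a covariate. In E3/Trem2ko against E3 mice Atf4 was then at 0.61 (limma adjusted p = 0.141) and Atf5 at 0.51 (adjusted p = 0.285). In all 10 genes were called, where 411 were called without it. Without E3/Trem2ko replicate 1, Asns (0.28, limma adjusted p = 0.0352) and Herpud1 (0.42, adjusted p = 0.0112) would also be called. Xbp1, the transcription factor of the IRE1 arm, was at 82.7, 118 and 150 CPM in E3/Trem2ko mice, against 74.1, 87.6 and 126 CPM in E3 mice, with overlap over most of the range. It was called in none of the 20 comparisons. The remaining values in E3/Trem2ko against E3 mice were -0.11 for Ddit3, 0.28 for Xbp1, 0.25 for Asns and 0.34 for Herpud1 (log2, limma adjusted p = 0.499, 0.151, 0.0763 and 0.0552).

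In APP/E4/Trem2ko mice Atf4 was at 37.8, 66.9 and 136 CPM, against 38.3, 47.5 and 61.8 CPM in APP/E4 mice. The groups overlapped at the low end, and 8 of 16 APP/E4/Trem2ko mice lay above the highest APP/E4 mouse. Atf4 rose by 0.45 ± 0.13 (log2, limma adjusted p = 0.0135). Together with Ddit3 and Herpud1, 3 of the 6 genes were called here, where 13.8% of all genes were called (11.3% higher and 2.53% lower).

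Ddit3, which encodes CHOP, a transcription factor tied to cell death under lasting ER stress, was at 15.5, 19.9 and 27.4 CPM in APP/E4/Trem2ko mice, against 11.7, 17.3 and 20.3 CPM in APP/E4 mice. Of 16 APP/E4/Trem2ko mice, 15 lay above the APP/E4 median and 8 above its highest mouse. Ddit3 rose by 0.27 ± 0.07 (log2, limma adjusted p = 0.00719). Herpud1, an ER membrane protein that helps to degrade misfolded proteins, was at 35.1, 48.5 and 66.3 CPM in APP/E4/Trem2ko mice, against 35.0, 39.4 and 49.1 CPM in APP/E4 mice, and rose by 0.25 ± 0.08 (log2, limma adjusted p = 0.0199). Here too 8 of 16 mice lay above the highest APP/E4 mouse.

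Rn45s, lower in APP/E4/Trem2ko than in APP/E4 mice by the medians above, moved with these calls. With log2 Rn45s as a covariate the values were 0.31 for Atf4, 0.22 for Ddit3 and 0.22 for Herpud1, with limma adjusted p of 0.169, 0.0856 and 0.134. Without the libraries that held keratin reads, Atf4 was called (0.74, adjusted p = 0.0205) while Ddit3 (0.28, adjusted p = 0.114) and Herpud1 (0.23, adjusted p = 0.269) were not. Offsets for gene length and GC content gave the smallest values, 0.12 for Ddit3 (adjusted p = 0.215) and 0.13 for Herpud1 (adjusted p = 0.301), with Atf4 at 0.34 (adjusted p = 0.0687). Over 15 other settings Atf4 was called in 11, Ddit3 in 10 and Herpud1 in 8. All 3 were also lost with only the genotypes compared and without high-Ttr libraries. Atf5, Xbp1 and Asns, at 0.07, 0.12 and 0.00, were not called.

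In the other backgrounds no member passed the test. In APP/E3/Trem2ko mice Atf4 was at 50.8, 78.6 and 105 CPM, against 43.2, 58.0 and 97.1 CPM in APP/E3 mice, a log2 difference of 0.38 ± 0.13 (limma adjusted p = 0.361), in a comparison where 0.319% of all genes were called. In E4/Trem2ko mice it was at 50.1, 60.2 and 82.6 CPM, against 34.0, 54.9 and 89.4 CPM in E4 mice, a difference of 0.22 ± 0.19 (limma adjusted p = 0.895), with 0.0994% of all genes called. These groups overlapped over most of their ranges. Of 14 APP/E3/Trem2ko mice, 13 lay above the APP/E3 median of Atf4 and 3 above its highest mouse. Of 8 E4/Trem2ko mice, 6 lay above the E4 median and 0 above its highest mouse.

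Averaged over the 4 backgrounds, Atf4 rose by 0.48 ± 0.08, Atf5 by 0.27 ± 0.08 and Herpud1 by 0.17 ± 0.05 in Trem2ko mice relative to wild-type Trem2 (log2, limma adjusted p = 2.73e-05, 0.0233 and 0.0194), and 5.79% of all genes were called (2.88% higher and 2.91% lower). The Atf4 value had the same sign in each of the 4 backgrounds. It was called in each of 14 other settings (0.35 to 0.62, adjusted p of at most 0.0146) and in all 88 fits that left out 1 mouse. The Atf5 call was lost without E4 replicate 4 (adjusted p = 0.0509) and the Herpud1 call without E4 replicate 6 (adjusted p = 0.0505). Both were also lost with the striatal marker score, the immediate early gene score or without keratin libraries. Asns (0.11, adjusted p = 0.0762), Xbp1 (0.11, adjusted p = 0.181) and Ddit3 (-0.02, adjusted p = 0.791) were not called. Leaving out E3 replicate 8 or E3/Trem2ko replicate 1 gave Asns a call (adjusted p = 0.0351 and 0.0428).

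Microglial markers (8 summed genes) also moved with Trem2, with medians of 336 CPM in E3/Trem2ko to 408 CPM in APP/E4/Trem2ko mice, against 430 CPM in E3 to 470 CPM in APP/E3 mice, and their part in the levels of the 6 genes was not tested.

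**Figure D2:**
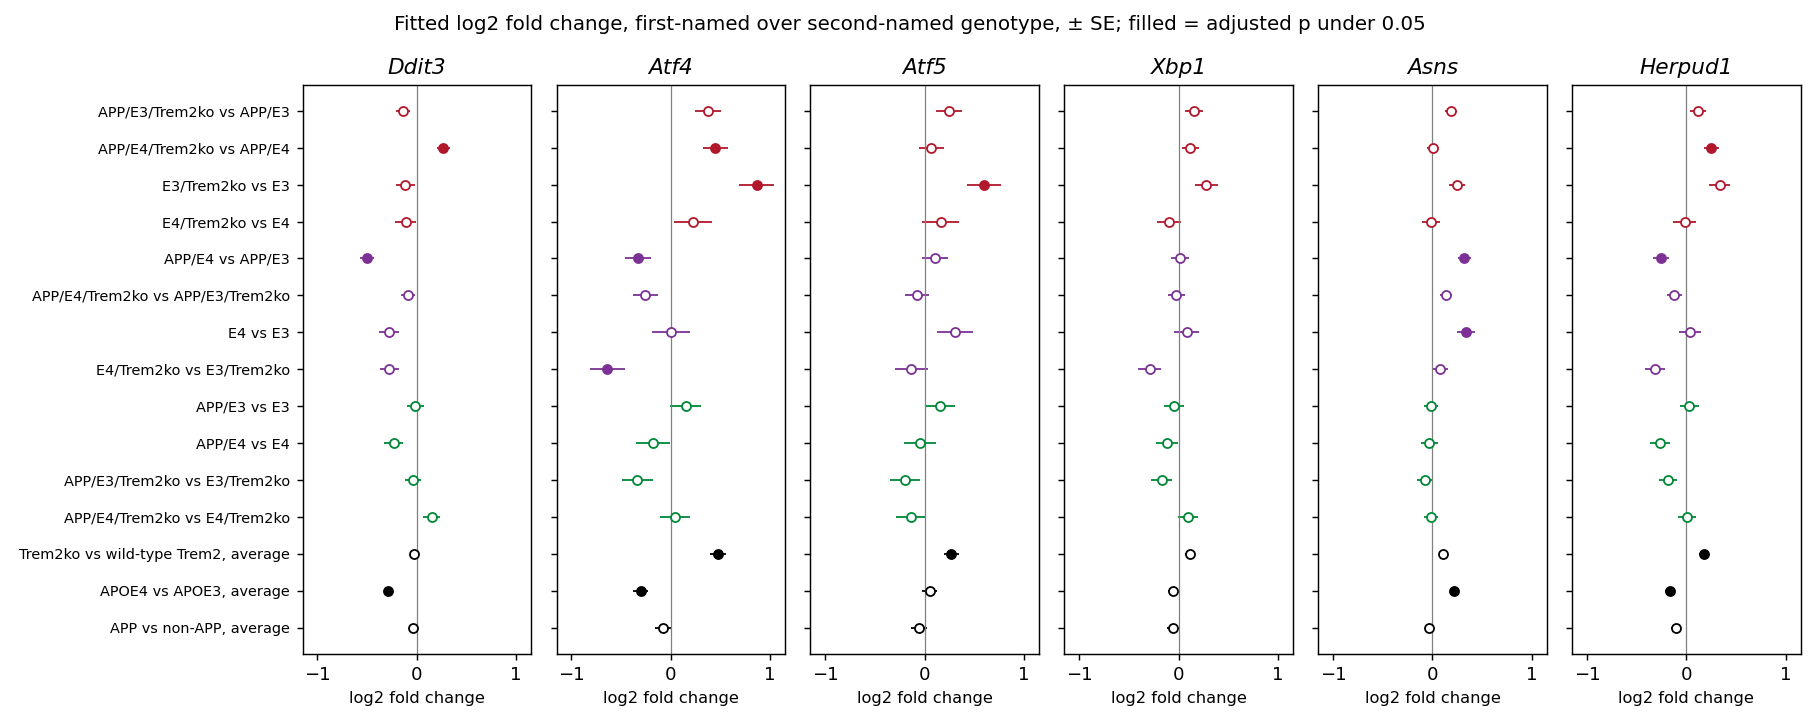
Fitted log2 fold change (x axis, the genotype named first over the one named second) of each gene in 12 pairwise comparisons and 3 averages, with SE bars. Filled points passed an adjusted p under 0.05 in limma, red for Trem2, purple for APOE, green for APP and black for averages. The Atf4 values lie right of 0 in all 4 Trem2 comparisons, and no green point is filled.

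The APOE isoform was compared next. Ddit3 and Asns gave the clearest differences, in opposite directions. Ddit3 was at 11.7, 17.3 and 20.3 CPM in APP/E4 mice, against 20.0, 23.9 and 28.0 CPM in APP/E3 mice. All 14 APP/E4 mice lay below the APP/E3 median and 12 of 14 below its lowest mouse. Ddit3 fell by 0.50 on the log2 scale (SE 0.07, limma adjusted p = 9.11e-08). It was called in each of the 15 other settings, with -0.34 (adjusted p = 0.0350) under the Rn45s covariate as the smallest difference. Of the 6 genes, 4 were called in this comparison, where 33.6% of all genes were called (10.9% higher and 22.7% lower).

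Asns, the enzyme that makes asparagine and a textbook ATF4 target, was at 88.7, 116 and 134 CPM in APP/E4 mice, against 72.9, 93.1 and 113 CPM in APP/E3 mice. Of 14 APP/E4 mice, 10 lay above the highest APP/E3 mouse. It rose by 0.32 ± 0.06 (log2, limma adjusted p = 4.81e-05). The Rn45s covariate gave 0.44 (adjusted p = 0.000735) and the fit without keratin libraries 0.25 (adjusted p = 0.0719).

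Herpud1 was at 35.0, 39.4 and 49.1 CPM in APP/E4 mice, against 37.4, 48.6 and 57.0 CPM in APP/E3 mice, and fell by 0.26 (SE 0.08, limma adjusted p = 0.00815). Only 4 of 14 APP/E4 mice lay below the lowest APP/E3 mouse. Atf4 was at 38.3, 47.5 and 61.8 CPM in APP/E4 mice, against 43.2, 58.0 and 97.1 CPM in APP/E3 mice, a difference of -0.33 ± 0.13 with a limma adjusted p of 0.0490. The Atf4 call was lost in 44 of the 88 fits that left out 1 mouse (adjusted p up to 0.110), among them 11 of 14 APP/E4 and 9 of 14 APP/E3 mice. It was called in 6 of 15 other settings. The call was lost with edgeR (-0.30, adjusted p = 0.0764) and DESeq2 (-0.29, adjusted p = 0.0733) on recovered reads, with TMM scaling (-0.28, adjusted p = 0.0899), with the immediate early gene covariate (-0.16, adjusted p = 0.319) and length and GC offsets (-0.15, adjusted p = 0.419), and without keratin, high-Ttr or high-Alb libraries. The Rn45s covariate turned its direction (0.13, adjusted p = 0.777), and Herpud1 was then at -0.14 (adjusted p = 0.559). These settings bear on APOE in general: with Rn45s in the model 172 genes were called, where 4729 were called without it.

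In non-APP mice with wild-type Trem2, Asns was at 112, 116 and 128 CPM in E4, against 81.3, 90.2 and 120 CPM in E3 mice, and rose by 0.34 ± 0.09 (log2, limma adjusted p = 0.0140). All 6 E4 mice lay above the E3 median. Asns was the only member called here, where 7.72% of all genes were called (1.72% higher and 6.01% lower). The call was lost without the keratin libraries, a fit that drops 4 of the 6 E4 mice, while the value was 0.38. Ddit3 was at 15.2, 20.8 and 22.7 CPM in E4, against 21.7, 23.9 and 29.0 CPM in E3 mice, a difference of -0.28 ± 0.10 (limma adjusted p = 0.0778). It would be called without E4 replicate 1 (adjusted p = 0.0389).

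In Trem2ko mice without APP, Atf4 was at 50.1, 60.2 and 82.6 CPM in E4/Trem2ko, against 60.6, 103 and 111 CPM in E3/Trem2ko mice. All 8 E4/Trem2ko mice lay below the E3/Trem2ko median and 5 below its lowest mouse. Atf4 fell by 0.64 on the log2 scale (SE 0.18, limma adjusted p = 0.0200), the only member called where 6.21% of all genes were called (1.53% higher and 4.68% lower). With the Rn45s covariate the value was -0.18 (adjusted p = 0.832). Ddit3 had a similar size as in E4 against E3 mice, -0.28 ± 0.10 (adjusted p = 0.0620), and Herpud1 was at -0.32 ± 0.10 (adjusted p = 0.0520). Herpud1 would be called in 16 and Ddit3 in 3 of the fits that left out 1 mouse. In APP/E4/Trem2ko against APP/E3/Trem2ko mice no member was called, with values between -0.25 for Atf4 and 0.14 for Asns, where 4.46% of all genes were called.

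Averaged over the 4 backgrounds, APOE4 mice were lower than APOE3 mice in Ddit3 (-0.29 ± 0.04), Atf4 (-0.30 ± 0.08) and Herpud1 (-0.17 ± 0.05) and higher in Asns (0.22 ± 0.04), with limma adjusted p of 8.60e-08, 0.00135, 0.00344 and 2.49e-06. Atf5 (0.05) and Xbp1 (-0.05) were not called. With length and GC offsets Atf5 was called (0.20, adjusted p = 0.00976) and Herpud1 was not (-0.07, adjusted p = 0.273). The background was large, with 40.4% of all genes called (12.6% higher and 27.8% lower), so 4 of 6 is read against that share. Of all genes, 1774 were called higher and 3911 lower, and with TMM scaling 2799 higher and 2908 lower. The 4 called members kept their directions under that scaling. With the Rn45s covariate, Asns was called (0.33, adjusted p = 0.000733), Ddit3 (-0.14, adjusted p = 0.538) and Herpud1 (-0.06, adjusted p = 0.890) were not, and Atf4 was at 0.12 (adjusted p = 0.836). Without the keratin libraries none of the 6 was called, among 461 genes called in all, with Ddit3 at -0.22 (adjusted p = 0.0609) and Asns at 0.21 (adjusted p = 0.0716). The keratin reads mark APOE4 libraries only, so no APOE3 library holds the same signal. That fit leaves out most mice of each APOE4 group, and why calls were lost in it was not tested.

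The difference between the isoforms in the effect of Trem2 deletion was tested directly. In APP mice the value for Ddit3 was 0.41 ± 0.10 (limma adjusted p = 0.0378), the effect in APOE4 minus that in APOE3. Its components were 0.27 in APP/E4/Trem2ko against APP/E4 mice and -0.14 ± 0.07 (adjusted p = 0.897) in APP/E3/Trem2ko against APP/E3 mice, where Ddit3 was at 18.3, 21.6 and 26.7 CPM in APP/E3/Trem2ko, against 20.0, 23.9 and 28.0 CPM in APP/E3 mice. Ddit3 was the only member among the 0.369% of genes called for this interaction. The call was lost in 17 of the 88 fits that left out 1 mouse (adjusted p up to 0.0752), all of APP groups, and with the Rn45s covariate (0.38, adjusted p = 0.0739). For Atf4 the difference was 0.07 ± 0.19 (adjusted p = 0.897) in APP mice and -0.64 ± 0.26 (adjusted p = 0.617) in non-APP mice, where 0.0142% of all genes were called. An effect of Trem2 on Atf4 that passed in E3 and APP/E4 backgrounds and not in the others is therefore not shown to differ between isoforms.

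APP transgenes gave no called member. The average difference between APP and non-APP mice lay between -0.10 ± 0.05 for Herpud1 (limma adjusted p = 0.242) and -0.03 ± 0.04 for Ddit3 (adjusted p = 0.771), and 1.68% of all genes were called. By background the widest values were -0.34 ± 0.16 for Atf4 in APP/E3/Trem2ko against E3/Trem2ko mice (adjusted p = 0.255) and -0.26 ± 0.10 for Herpud1 in APP/E4 against E4 mice (adjusted p = 0.485). Those 4 comparisons called 0.0213% (APP/E3 against E3), 0.0142% (APP/E4 against E4), 0.149% (APP/E3/Trem2ko against E3/Trem2ko) and 0.0781% (APP/E4/Trem2ko against E4/Trem2ko) of all genes. Females and males differed by -0.05 in Ddit3 to 0.08 in Atf5, with no member called where 0.135% of all genes were. No member was called for APP by Trem2, where 0.0071% of all genes were called. For APP by APOE limma called none of 14086 genes, with 856 at an unadjusted p under 0.05, while edgeR called none and DESeq2 called 5.

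The wider pathway was described by 8 lists. In E3/Trem2ko against E3 mice, 6 of 18 ATF4 and CHOP targets rose and none fell (median 0.31 on the log2 scale, beside 0.00 over all genes, of which 1.26% were called higher). Of 15 genes of amino acid synthesis and transport 4 rose (median 0.27). Of 12 genes listed under tRNA charging (aminoacyl-tRNA synthetases and Xpot, a tRNA exporter) 4 rose (median 0.18). None fell in these lists. ER chaperones and folding enzymes (0 of 18 called, median 0.07) and ER-associated degradation (0 of 16, median 0.00) had medians close to that of all genes, as had eIF2 and eIF2B translation control (0 of 10, median 0.00). Of 6 mitochondrial unfolded protein response genes, Lonp1, a mitochondrial protease, rose by 0.23 ± 0.06 (limma adjusted p = 0.0308). None of 7 UPR sensors and eIF2alpha kinases was called. With the immediate early gene score as a covariate, 0 of 18 ATF4 and CHOP targets, 2 of 15 amino acid genes and 0 of 12 tRNA charging genes were called.

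Mthfd2, a mitochondrial folate enzyme, was at 5.43, 9.79 and 14.5 CPM in E3/Trem2ko mice, against 3.75, 4.46 and 7.20 CPM in E3 mice, and rose by 0.89 ± 0.14 (log2, limma adjusted p = 6.85e-05). It also rose in APP/E3/Trem2ko against APP/E3 mice (0.52 ± 0.11, adjusted p = 0.00380), where it was the only listed gene called. Slc7a1, a transporter of cationic amino acids, rose by 0.44 ± 0.08 (adjusted p = 0.000252) and Slc7a5, a transporter of large neutral amino acids, by 0.56 ± 0.12 (adjusted p = 0.00983) in E3/Trem2ko against E3 mice. Slc7a5 was at 110, 146 and 153 CPM in E3/Trem2ko mice, against 76.3, 89.2 and 122 CPM in E3 mice, so the E3/Trem2ko median lay above the highest E3 mouse.

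Averaged over backgrounds, 10 of 12 tRNA charging genes, 6 of 15 amino acid genes and 6 of 18 ATF4 and CHOP targets rose in Trem2ko mice and none fell, with medians of 0.11, 0.11 and 0.13 beside 0.01 over all genes, of which 2.88% were called higher. The differences were small: Cars, a cysteinyl-tRNA synthetase listed among the ATF4 targets, rose by 0.26 ± 0.05 (adjusted p = 0.000140), Mthfd2 by 0.43 ± 0.06 (adjusted p = 3.75e-06) and Aldh18a1, an enzyme of proline synthesis, by 0.14 ± 0.03 (limma adjusted p = 0.00235). No gene of the ER chaperone, ER-associated degradation, eIF2, sensor or mitochondrial lists was called in this average. The striatal marker score as a covariate left 1 of 12, 3 of 15 and 2 of 18 called, and without keratin libraries 0 in all 3 lists, among 33 genes called in all. List medians stayed between 0.08 and 0.13 in those settings.

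In APP/E4/Trem2ko against APP/E4 mice 11.3% of all genes were called higher and 2.53% lower. There 4 of 10 eIF2 and eIF2B genes, 3 of 6 mitochondrial genes and 3 of 18 ER chaperones rose. Hspe1, the mitochondrial chaperonin 10, rose by 0.41 ± 0.12 (limma adjusted p = 0.0135). Of the ATF4 and CHOP targets 3 rose and 1 fell, and of the 12 tRNA charging genes 2 rose, shares close to that of all genes, as is that of the chaperones. With the Rn45s covariate or with only the genotypes compared no gene of the 8 lists was called, and calls over all genes were 147 and 75, where 1944 were called. TMM scaling moved the background there, with 804 genes higher and 649 lower, against 1588 higher and 356 lower as deposited.

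**Figure D3:**
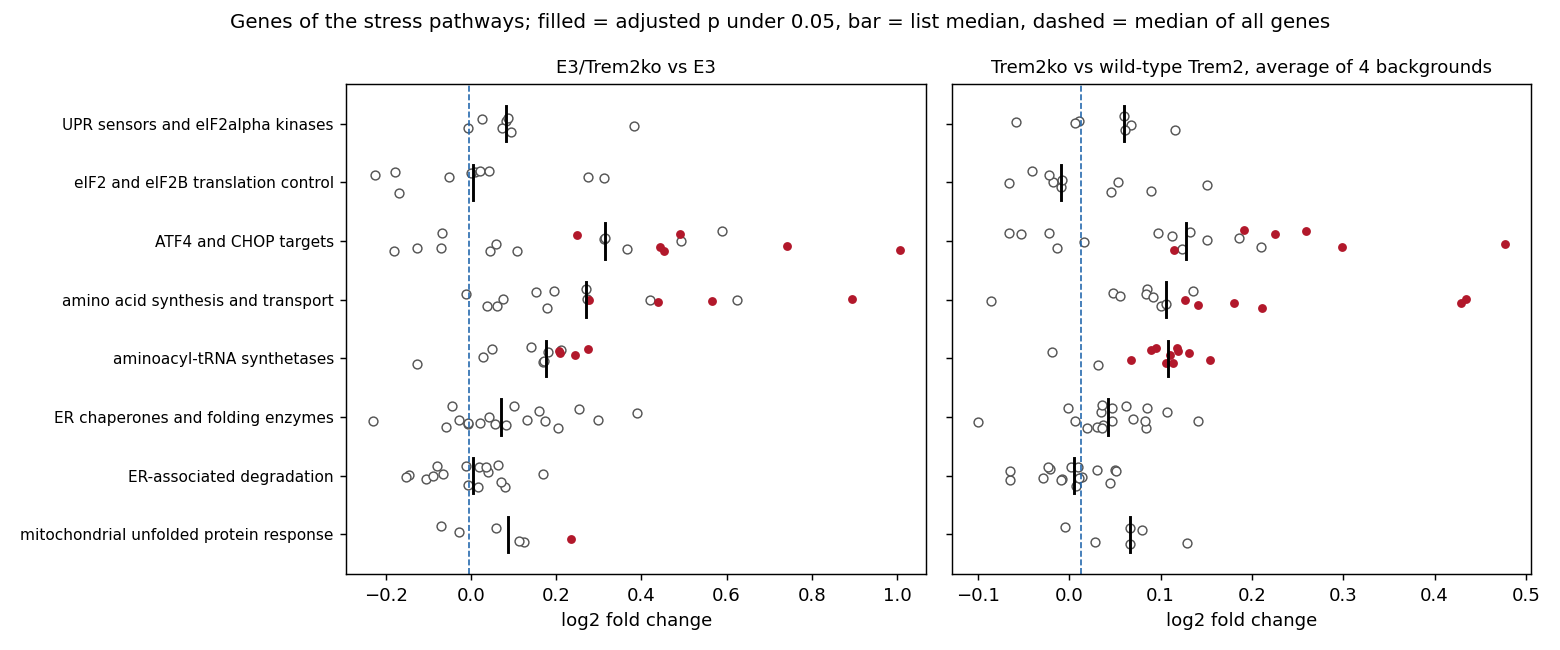
Log2 fold change of each gene in 8 stress lists, in E3/Trem2ko against E3 mice (left) and in Trem2ko against wild-type Trem2 mice averaged over 4 backgrounds (right, on its own scale). Filled points passed an adjusted p under 0.05, black bars are list medians and the dashed line is the median of all genes. Filled points lie right of 0 in the lists of ATF4 and CHOP targets, amino acid genes and aminoacyl-tRNA synthetases (tRNA charging, with Xpot). No ER chaperone point is filled.

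For APOE the lists split. In APOE4 against APOE3 mice on average, 9 of 18 ER chaperones and folding enzymes fell and 1 rose (median -0.10, beside -0.03 over all genes), and 8 of 16 genes of ER-associated degradation fell and 5 rose. Manf, a secreted ER stress protein, fell by 0.35 (SE 0.05, adjusted p = 1.25e-07), Creld2, another ER stress protein, by 0.31 (SE 0.07, adjusted p = 9.76e-05) and Selenos, a selenoprotein of ER-associated degradation, by 0.31 (SE 0.05, limma adjusted p = 3.79e-08). Of the tRNA charging genes 5 rose and 2 fell. Gars, a glycyl-tRNA synthetase, rose by 0.17 ± 0.03 (adjusted p = 2.96e-06) and Mars by 0.16 ± 0.02 (adjusted p = 5.45e-08). Of all genes, 27.8% were called lower and 12.6% higher, and whether these lists differ from that background was not tested. TMM scaling gave 8 lower and 3 higher for the ER chaperones and 0 lower and 7 higher for tRNA charging, and the Rn45s covariate left none of the 18 chaperones and 1 of the 12 tRNA charging genes called.

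In APP/E4 against APP/E3 mice Ppp1r15a, whose product (GADD34) reverses eIF2 phosphorylation, was at 8.48, 10.6 and 12.4 CPM in APP/E4, against 11, 14.7 and 20.9 CPM in APP/E3 mice, and fell by 0.47 (SE 0.10, limma adjusted p = 0.000105). Nupr1, a stress-induced chromatin protein, fell by 0.60 (SE 0.13, adjusted p = 0.000128), at a median of 2.02 CPM in APP/E4 and 3.65 CPM in APP/E3 mice. Hyou1, an ER chaperone, went the other way (0.35 ± 0.07, adjusted p = 1.88e-05). Eif2b2, a subunit of the exchange factor that eIF2 phosphorylation blocks, was at 17.0, 22.5 and 28.6 CPM in APP/E4, against 27.4, 31.5 and 36.1 CPM in APP/E3 mice. ATF4 and CHOP targets were mixed here, with 5 higher and 6 lower of 18, in a comparison that called 1530 genes higher and 3199 lower (2234 and 2480 with TMM scaling). With the Rn45s covariate none of these 18 was called.

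Among mice of one genotype and sex, the 6 genes varied together in part. The correlation of residuals over 88 mice, after subtraction of genotype and sex, was 0.71 between Xbp1 and Herpud1 and 0.70 between Atf4 and Herpud1, the highest of 15 pairs. It was 0.51 between Atf4 and Asns, 0.47 between Ddit3 and Atf4, and 0.01 between Ddit3 and Asns. All points share library, scaling and dissection, so these values are descriptions. The genes most like each member by the same measure differed between members. Atf4 was closest to Sbds (0.81), Sars (0.81), a seryl-tRNA synthetase, and Tmem11 (0.77), and Asns to Gars (0.88), Nars (0.80), an asparaginyl-tRNA synthetase, and Elp3 (0.76). Xbp1 was closest to Fam20a (0.81), Pdia4 (0.80) and Sdf2l1 (0.78), of which Pdia4 and Sdf2l1 encode ER folding proteins. Herpud1 was closest to Cys1 (0.83), Zmynd8 (0.81) and Tsc22d3 (0.80), Ddit3 to Sirt2 (0.72) and Sbds (0.70), and Atf5 to Lbh (0.74), Esrra (0.73) and Cdkn1b (0.72).

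The same residuals were set beside marker lists. Immediate early genes gave 0.55 with Atf4 and 0.52 with Herpud1, and striatal neuron markers, whose summed level had medians between 238 CPM in E4/Trem2ko and 985 CPM in E4 mice, gave -0.50 with Atf4 and -0.48 with Herpud1. Astrocyte markers gave -0.49 and endothelial markers -0.47 with Asns, oligodendrocyte markers 0.48 with Atf5, microglial markers -0.46 with Herpud1, and Rn45s -0.44 with Atf4. Ddit3 had no value beyond 0.38 (oligodendrocytes). The part of these cell types and of dissection in the levels of the 6 genes was not tested beyond the covariate fits given here.

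**Figure D4:**
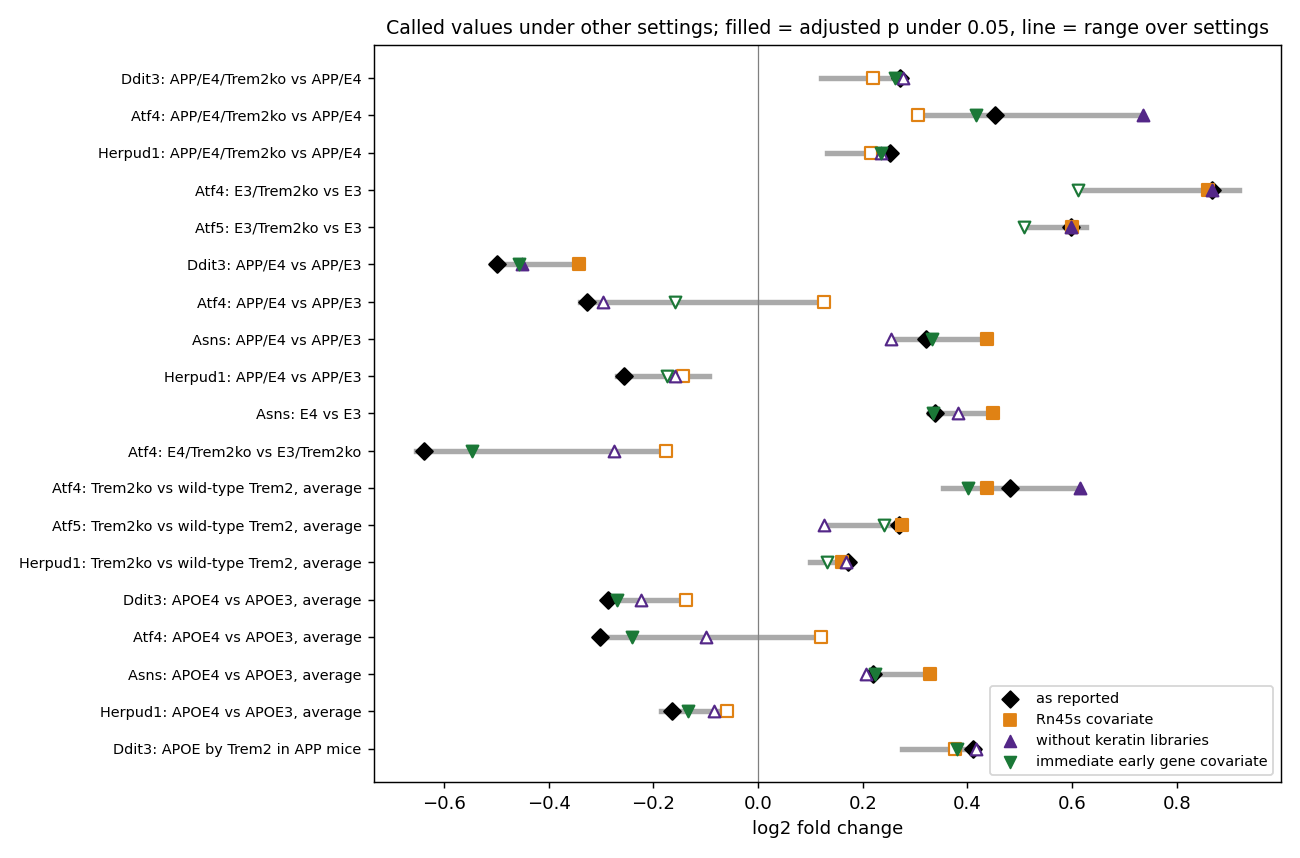
The 19 called values (of 120 member values in 20 comparisons) as log2 fold change, as reported (black diamond) and with the Rn45s covariate (orange square), without keratin libraries (purple triangle) and with the immediate early gene covariate (green triangle). Filled symbols passed an adjusted p under 0.05, and grey lines span all settings with all mice or without a class of libraries. Atf4 in Trem2ko mice on average and Ddit3 in APP/E4 against APP/E3 mice are filled throughout.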

How the data were processed

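Frontal cortex RNA (RIN above 8) of 88 perfused mice was sequenced, 1 library per mouse. Per the study's methods and the submitters' processing notes, the authors aligned reads to mm10 with Subread, counted them per gene with featureCounts and used edgeR. The deposited values are CPM, made by the authors from read counts scaled to library size. The gene annotation used and the strand setting are not given in the sources used here. Of 14497 entries, 46 exact repeats were removed, leaving 14451 genes. In each library all values (100%) were whole multiples, within 0.01 read, of the smallest gap between low values. That gap was taken as 1 read, and the reads recovered in this way were used for the count tests.

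Genes averaging 1 CPM or more (14086) were tested in R 4.3.3 with limma 3.58.1, whose moderation was robust and allowed a trend with expression, on values of log2(CPM + 0.5). All 88 mice entered 1 model with terms for genotype (8 levels) and sex, which gave 20 comparisons. Fold changes are on the log2(CPM + 0.5) scale. Adjusted p-values are Benjamini-Hochberg over all genes tested, and a gene was called under 0.05. Mice are separate animals, so p-values measure the spread between animals. The script was tested on simulated data. The parts of animals, depth, dissection and batch in the spread were not tested. The 6 genes and the lists were chosen with earlier results of these data known. The text names the 6 genes in every comparison, for each list up to 4 called genes with the smallest p, and for each member the 3 genes of highest residual correlation, of which 1 is not reported here. Genes of the 8 stress lists without a value in the table (5 of all listed) were left out of the lists. Of the ATF4 and CHOP targets 19 had a value, and the 18 that averaged 1 CPM or more were tested. Marker genes without a value were left out of their sums.

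Alternatives were pseudocounts of 0.1 and 1, no filter, TMM scaling, edgeR 4.0.16 and DESeq2 1.42.0 on recovered reads, no sex term, only the genotypes compared, covariates for striatal markers or Rn45s, offsets for gene length and GC content, fits without libraries with keratin reads, high Ttr (at least 100 CPM) or high Alb (at least 50 CPM), and each mouse left out in turn. A covariate for immediate early genes was chosen after seeing the data.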

Additional observations from a re-analysis of the deposited data

Results flagged for a closer look

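In groups of 6 or 8 mice, 4 values of the 6 genes lay far from the rest of their group, among 24 combinations of gene and group tested with Dixon's 95% limit, which chance passes in about 1 of 20 groups. Atf4 was at 60.6 CPM in E3/Trem2ko replicate 1, where the next mouse had 100 CPM, and at 90.7 CPM in E3 replicate 8, where the next mouse had 53.9 CPM. Without these 2 mice the ranges were 100 to 111 CPM in E3/Trem2ko and 45.4 to 53.9 CPM in E3, and both mice lay between them. Trem2 followed their labels at 2.0 CPM in E3/Trem2ko replicate 1 and 12.5 CPM in E3 replicate 8. The same E3/Trem2ko mouse had the lowest Herpud1 of its group, 38.2 CPM, with 54.6 CPM next. Xbp1 was at 138 CPM in E4 replicate 5, with 99.8 CPM next, in a library with 389 CPM of Ttr.

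Ddit3 differed between the isoforms in its response to Trem2 deletion in APP mice, by 0.41 on the log2 scale (limma interaction, adjusted p = 0.0378).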

How the results depend on the processing

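The number of the 6 genes called moved by more than 1.5 times as follows. In APP/E4/Trem2ko against APP/E4 mice it was 3 and became 0 with only the genotypes compared, the Rn45s covariate, length and GC offsets or without high-Ttr libraries, and 1 without keratin libraries. In E3/Trem2ko against E3 mice it was 2 and became 1 with the striatal covariate, 0 with the immediate early gene covariate, 4 with length and GC offsets, and 1 to 4 with each mouse left out. In APP/E4 against APP/E3 mice it was 4 and became 2 with the Rn45s or immediate early gene covariate and 1 without keratin libraries. In E4 against E3 mice it was 1 and became 0 with only the genotypes compared or without keratin libraries, and 1 to 2 with each mouse left out. In E4/Trem2ko against E3/Trem2ko mice it was 1 and became 2 with the striatal covariate or without high-Ttr libraries, 0 with the Rn45s covariate or without keratin or high-Alb libraries, and 1 to 3 with each mouse left out. The Trem2 average had 3 and went to 1 with the striatal or immediate early gene covariate or without keratin libraries, the APOE average had 4 and went to 1 with Rn45s and 0 without keratin libraries, and the interaction of APOE and Trem2 in APP mice had 1 and went to 0 with Rn45s, length and GC offsets, without keratin, high-Ttr or high-Alb libraries, and 0 to 1 with each mouse left out. Smaller moves were 4 to 3 in APP/E4 against APP/E3 mice (Atf4 lost with TMM scaling, edgeR, DESeq2 and without high-Ttr or high-Alb libraries, and with length and GC offsets Atf4 and Herpud1 lost and Atf5 gained), 3 to 2 in APP/E4/Trem2ko against APP/E4 mice (Herpud1 lost with TMM scaling and without high-Alb libraries), and 2 to 3 in E3/Trem2ko against E3 mice (Herpud1 gained with the Rn45s covariate, edgeR, DESeq2 and without high-Ttr libraries). The APOE average stayed at 4 with length and GC offsets, with Atf5 gained and Herpud1 lost. With the Rn45s covariate Atf4 became 0.13 in APP/E4 against APP/E3 mice, where it was -0.33, and 0.12 in the APOE average, where it was -0.30. In APP/E3/Trem2ko against APP/E3 mice no gene was called and 1, Atf4, was with the immediate early gene covariate. The cause was not tested. Without keratin libraries E4/Trem2ko keeps 1 mouse, which is assumed to vary like the other groups. No paired analysis was possible because the labels give no number that links mice of different genotypes.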
